A study of Mus musculus with 40 samples.

Results

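Ezrin, radixin and moesin are the ERM proteins, which tie the plasma membrane to cortical actin. The genes examined here are Ezr, Rdx and Msn, which encode them, together with 3 partners: Nf2, which encodes merlin, Slc9a3r1, which encodes the scaffold NHERF1, and Cd44, which encodes the hyaluronan receptor CD44. The rule used gene symbols and no measured value, but the 6 genes were chosen with earlier results of these data known. All 6 of 6 symbols were found, 1 row each, among the 24060 rows of the read-count table. The question was how strongly each of the 6 genes is represented on ribosomes of striatal astrocytes and of striatal neurons, and whether loss of SAPAP3, a postsynaptic scaffold protein encoded by Dlgap3, alters them.

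An ERM protein folds on itself in the cytosol. Binding of a membrane phosphoinositide and phosphorylation of a conserved threonine near its carboxyl end open it, so that the amino-terminal FERM domain can hold membrane proteins, directly or through NHERF1, while the tail holds actin filaments. CD44 is a classical membrane anchor of this kind. Merlin shares the FERM domain and acts upstream of the Hippo kinases that restrain the transcription co-activators YAP and TAZ. In brain, ezrin is known for the fine perisynaptic processes of astrocytes, and moesin is also abundant in microglia and endothelial cells.

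The 40 libraries fell into 10 groups of 4 mouse striata. The RiboTag method expresses an HA-tagged ribosomal protein, Rpl22, from an adeno-associated virus (AAV) in one cell type, so that immunoprecipitation (IP) with anti-HA recovers the ribosome-bound RNA of those cells from a lysate whose total RNA is the input. In the astrocyte cohort, wild-type C57/BL6NTac mice gave 4 input and 4 IP libraries. The labels do not name their virus, and the study's methods give the astrocyte promoter GfaABC1D for it, with injection into the dorsal striatum at 6 weeks of age. In the neuron cohort the hSYN1 promoter drove the tag in C57/BL6NTac wild types of the same age at injection, with 4 input and 4 IP libraries whose labels carry different animal numbers. In the SAPAP3 cohort, wild-type (WT) C57/BL6J mice and Dlgap3 knockout (KO) mice on C57/BL6J, injected at 4.5 months of age, each gave 4 input and 4 IP libraries, but their labels do not say in which cells the tag was made. Bulk striatum from WT and Dlgap3 KO mice, with no IP and a C57/BL6NTac strain label for both genotypes, completed the series, with neither age nor virus in its labels. One animal label occurs in both bulk genotypes. Males and females were used, and replicate means a separate library of a separate animal label.

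Library totals ran from 23.4 to 84.1 (in units of 1000000 counted reads), and each of the 6 genes had at least 163 reads in every library. Levels are given as CPM, reads per 1000000 of a library's total. The labelled cell types matched their markers in part. Of 10 astrocyte markers, 10 were higher in astrocyte-cohort IP than in input, and their summed level was 32600 to 34900 CPM against 3730 to 3890 CPM. In the SAPAP3 cohort it was 23600 to 35200 CPM in IP against 6230 to 8150 CPM in input. Other glial markers were retained in that IP too, with oligodendrocyte markers at 6730 to 10500 CPM against 5830 to 6770 CPM in input and ependymal markers at 80.2 to 148 CPM against at most 36.4 CPM. Microglial markers fell to 17.9 to 24.6 CPM in astrocyte-cohort IP from 850.0 to 1080.0 CPM in input. In neuron IP the 10 neuron markers summed to 8880 to 9180 CPM against 6320 to 6630 CPM in input. Their median log2 fold change was 0.75. Of the 10, 3 were higher at an edgeR adjusted p below 0.05 and a log2 fold change above 1, where 0.42% of all genes were. Astrocyte markers were still at 3540 to 3850 CPM in neuron IP against 6120 to 6540 CPM in its input. Neuron-marker RNA also stayed in astrocyte-cohort IP, at 4600 to 4980 CPM against 6960 to 7260 CPM in input. Dlgap3 was lower in KO than in WT, by 1.19 (log2) in input (edgeR adjusted p = 0.00698), by 1.40 in IP (adjusted p = 0.0283) and by 1.14 in bulk (adjusted p = 0.318). In bulk, Dlgap3 was at 376, 385, 338 and 232 CPM in WT and at 144 to 161 CPM in KO, so WT library 4 lay between.

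These libraries measured RNA and not the proteins themselves. The study's own proteomics, which lists EZR among astrocyte membrane proteins altered in SAPAP3 KO mice, was not used here. The relatedness of the proteins bears on the counts, because reads from one gene could be placed on another. From the RefSeq coding sequences on GRCm38.p6, radixin and moesin were identical at 81.8% of aligned residues, ezrin and radixin at 76.3%, ezrin and moesin at 73.8%, and merlin matched each of them at 46.6% to 47.6%. The longest run of identical bases in any pair of the ERM messages was 32 bases, between Ezr and Msn, which is shorter than the 75-base reads. The regulatory threonine shows both the shared protein and the distinct DNA. It is residue 567 of ezrin, encoded in exon 13 at chr17:6739351-6739380 on the minus strand, residue 564 of radixin, in exon 14 at chr9:52086402-52086431 on the plus strand, and residue 558 of moesin, in exon 13 at chrX:96166557-96166586 on the plus strand. Each window is coding, is written 5′ to 3′ along the message, and has the threonine codon in capitals:
Ezr: agggacaagtataagACGctgcggcaaatc
Rdx: cgtgataagtacaagACCcttcggcagatt
Msn: cgagacaaatacaagACCctgcgccagatc
The residues around this threonine that the 3 proteins share were searched for in merlin and not found. No copy of any of the 6 messages elsewhere on the assembled chromosomes reached 95% identity over 50% of its length. A stretch of chromosome 1 matched 26.4% of the Slc9a3r1 message at 97.8% identity, so a small part of its reads could be shared. The genes lie on chromosomes 17 (Ezr, 6738131 to 6782780), 9 (Rdx, 52047150 to 52088738), X (Msn, 96096045 to 96168553), 11 (Nf2, 4757639 to 4849544, and Slc9a3r1, 115163341 to 115181178) and 2 (Cd44, 102811141 to 102901669), and no other annotated gene shared an exon base with them.

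In astrocyte-cohort mice, 5 of the 6 genes were higher in IP than in input, against a background of 13.4% of the 15476 genes tested called higher. A gene was called here at an adjusted p below 0.05, with a log2 fold change beyond 1, by edgeR's quasi-likelihood test. Nf2 was the exception. Ezr stood at 324, 323, 321 and 300.0 CPM in the 4 IP libraries and at 57.3, 55.0, 55.4 and 55.4 CPM in their inputs. The groups were far apart, and the log2 fold change was 2.73 ± 0.04 (SE; edgeR adjusted p = 2.02e-12), a 6.63-fold higher level. Slc9a3r1, whose protein bridges ERM proteins to ion transporters and receptors, gave 182, 198, 181 and 189 CPM in IP against 38.0, 36.7, 36.2 and 42.8 CPM. It too separated without overlap, with a log2 fold change of 2.51 ± 0.05 (edgeR adjusted p = 7.86e-12).

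Rdx rose less, and very evenly. Its IP libraries held 225, 222, 241 and 234 CPM and its inputs 106, 105, 112 and 110 CPM, a log2 fold change of 1.31 ± 0.04 (edgeR adjusted p = 6.93e-11). Msn and Cd44 rose too, but differed widely between mice. Msn was at 41.9, 32.6, 42.5 and 56.9 CPM in IP against 20.0, 15.7, 20.2 and 27.2 CPM in input, with a log2 fold change of 1.29 ± 0.17 (edgeR adjusted p = 3.41e-05). Cd44 was at 42.4, 33.3, 39.0 and 68.8 CPM against 6.76, 5.74, 5.83 and 9.68 CPM, with a log2 fold change of 2.94 ± 0.24 (edgeR adjusted p = 4.08e-07). Even the lowest IP library lay above the highest input library for both genes, and mouse 4 was the highest and mouse 2 the lowest in IP and in input alike. Ependymal markers, of another cell type rich in ezrin, were also higher in this IP, 6 of 6, at 67.1 to 129 CPM summed against 26.5 to 36.4 CPM, and their part in these values was not tested.

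Nf2 hardly moved. Its IP libraries had 115, 117, 112 and 117 CPM and its inputs 131, 126, 123 and 126 CPM. On totals IP was thus the lower, while the fit, which rescales libraries by TMM (trimmed mean of M-values), placed IP higher by 0.09 ± 0.03 (log2; edgeR adjusted p = 0.0239, under the fold limit). The rescaling raised IP over input by a median of 0.22 (log2) in this cohort, by 0.20 in the neuron cohort and in SAPAP3 KO mice and by 0.17 in SAPAP3 WT mice, so every fitted fold change exceeds the ratio of the printed CPM by about that much, and the direction of Nf2 rests on it. Over all 40 libraries Nf2 spanned 90.9 to 131 CPM, a 1.44-fold range, against 8.93-fold for Ezr and 23.9-fold for Cd44.

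**Figure D1:**
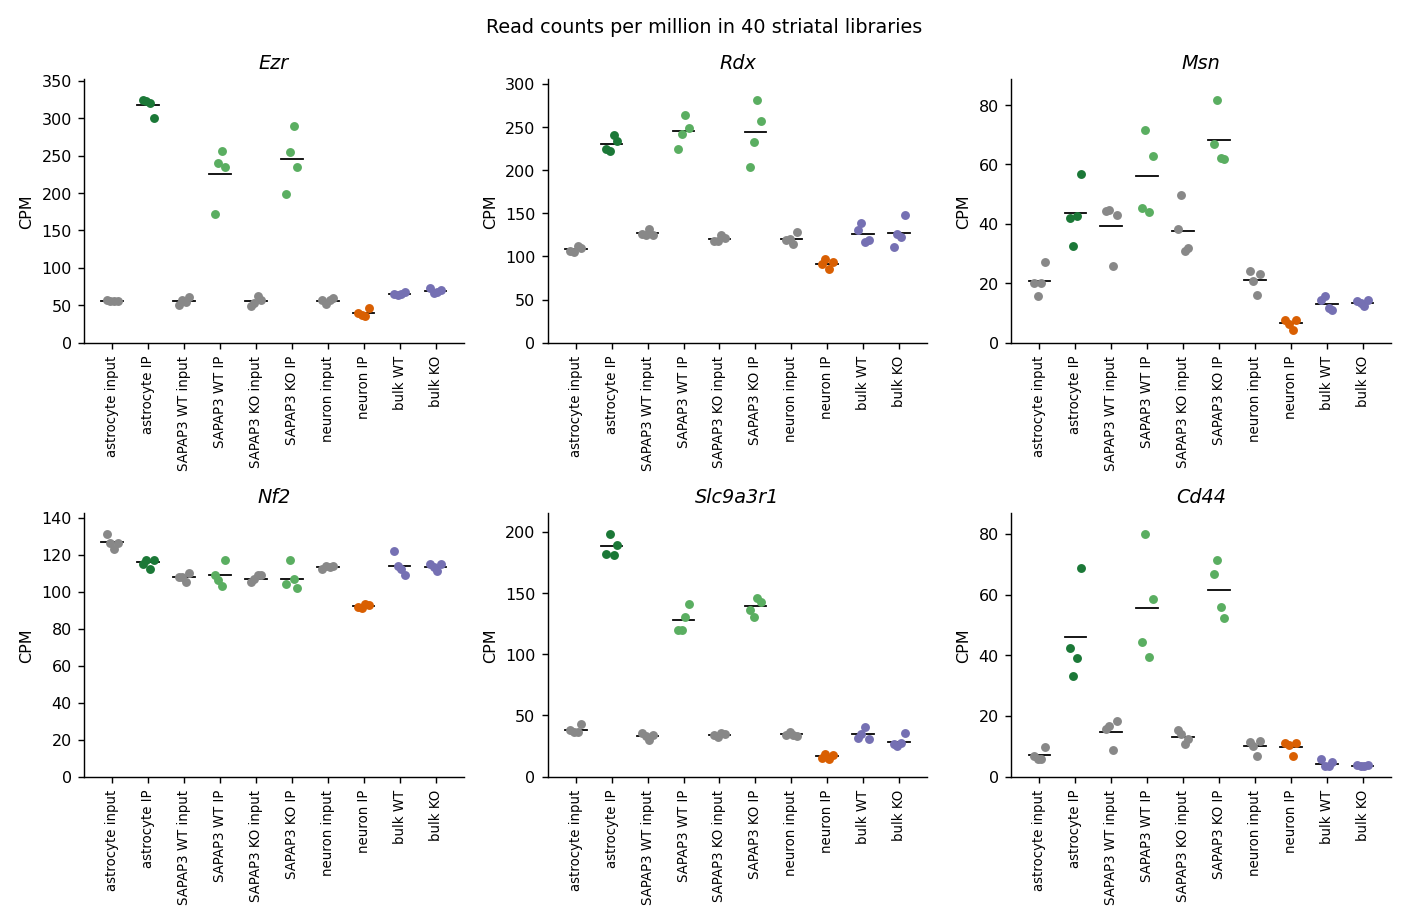
Level of each gene in CPM (vertical axis, from 0) in the 10 groups (horizontal axis), with 1 point per library and a black line at the group mean. Ezr, Slc9a3r1 and Rdx sit high in the astrocyte and SAPAP3-cohort IP groups and lowest in neuron IP, Cd44 is lowest in bulk striatum, and Nf2 stays between 90.9 and 131 CPM throughout.

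In neuron IP Msn was lower than in input, the reverse of its direction in the astrocyte cohort. In the neuron cohort 0.42% of the 16198 genes tested were called higher and 15.8% lower. None of the 6 was called higher, and 1, Msn, was called lower, both near these shares of all genes. Msn was at 7.74, 6.43, 4.35 and 7.53 CPM in neuron IP and at 24.2, 20.9, 15.9 and 23.1 CPM in input, so the groups did not overlap, and the log2 fold change was -1.49 ± 0.18 (edgeR adjusted p = 3.38e-05). The 10 microglial markers were lower there as well, 10 of 10, at 26.4 to 48.5 CPM summed against 691 to 1170 CPM, and their part in the fall of Msn was not tested. Slc9a3r1 came next, at 15.5, 18.1, 14.7 and 18.0 CPM against 34.0, 36.3, 33.9 and 33.4 CPM. Its log2 fold change of -0.85 ± 0.07 had an adjusted p of 2.17e-06 by edgeR but did not pass the fold limit.

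Ezr was at 39.5, 37.6, 36.2 and 46.6 CPM in neuron IP and at 56.4, 51.3, 56.4 and 59.9 CPM in input. The log2 fold changes of Ezr (-0.28 ± 0.07), Rdx (-0.19 ± 0.04) and Nf2 (-0.10 ± 0.03) were under the limit, with edgeR adjusted p of 0.00503, 0.00259 and 0.0228. Cd44 overlapped between the groups, with 10.9, 10.4, 6.87 and 11.2 CPM in IP and 11.5, 9.99, 6.90 and 11.7 CPM in input (log2 fold change 0.18 ± 0.18, edgeR adjusted p = 0.404). With the replicate number as a block its log2 fold change was again 0.18, with an edgeR adjusted p of 0.00983, still under the fold limit. On library totals the log2 ratios by replicate number were -0.09, 0.07, -0.01 and -0.06, so the sign of this value rests on the TMM rescaling. Beside these values stand the astrocyte markers that neuron IP retained. Their median log2 fold change was -0.59, with 0 of 10 called, and Gfap, the intermediate filament of astrocytes, was at 304 to 535 CPM in neuron IP against 221 to 394 CPM in input. The share of astrocyte RNA in the neuron IP levels of the 6 genes was not tested.

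**Figure D2:**
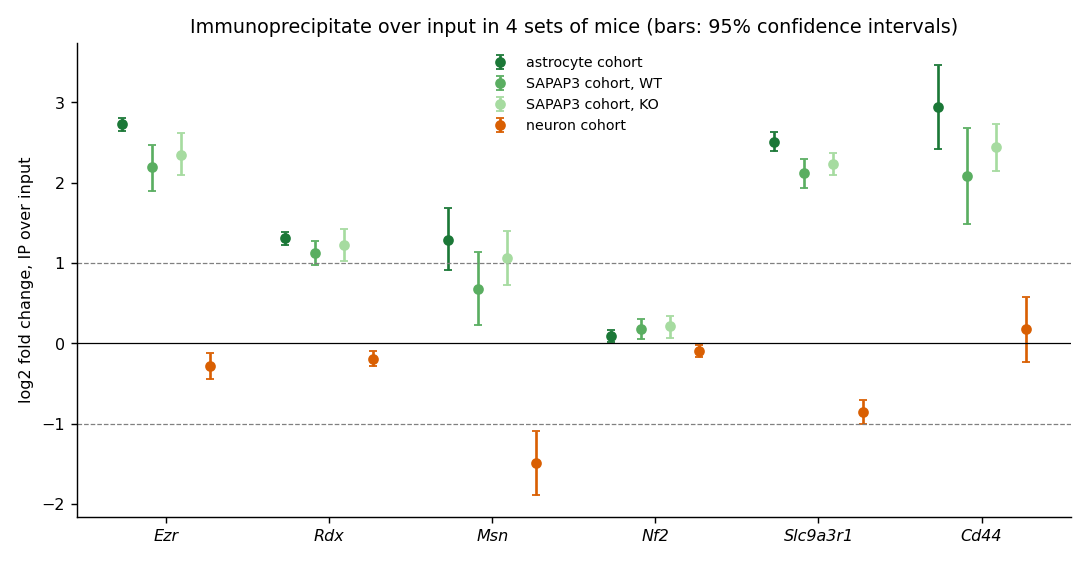
Log2 fold change of IP over input (vertical axis) for each gene (horizontal axis) in the 4 sets of mice; points are edgeR estimates, bars 95% confidence intervals, and dashed lines the fold limit of 1. In the astrocyte and SAPAP3 cohorts every gene but Nf2 lies at 0.68 to 2.94, while the neuron cohort lies between -1.49 and 0.18.

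The enrichments of the astrocyte and neuron cohorts were also compared with each other. All 6 genes had a larger IP-over-input ratio in the astrocyte cohort, in a test where 34.3% of the 16371 genes were called in that direction and where no fold limit was applied. The difference in log2 fold change was 3.36 ± 0.09 for Slc9a3r1 (edgeR interaction term, adjusted p = 3.27e-15), 3.01 ± 0.09 for Ezr (adjusted p = 1.05e-14), 2.78 ± 0.27 for Msn (adjusted p = 8.88e-08), 2.77 ± 0.33 for Cd44 (adjusted p = 8.30e-07), 1.50 ± 0.06 for Rdx (adjusted p = 2.43e-13) and only 0.19 ± 0.04 for Nf2 (adjusted p = 0.000596). Direct comparison of the IP groups called 5 of the 6 lower in neurons, where 19.4% of 15468 genes were called lower. Neuron IP was lower than astrocyte-cohort IP by 11.8-fold for Slc9a3r1, 8.27-fold for Ezr, 6.98-fold for Msn, 4.86-fold for Cd44 and 2.62-fold for Rdx. For Nf2 the log2 difference was -0.39 ± 0.03 (edgeR adjusted p = 2.04e-06), under the limit. The interaction term also called 10 of 10 astrocyte, 10 of 10 oligodendrocyte and 6 of 6 ependymal markers larger in the astrocyte cohort. Their median differences were 3.5, 1.58 and 1.86 (log2), and the part of these cell types in the gaps of the 6 genes was not tested. Cohort, virus and promoter differed together between the mice of the 2 cohorts, and sex was confounded with them. None of these can be told apart from cell type here.

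The 3 ERM genes can be set beside one another only per length. In FPKM, which divides CPM by the kilobases of merged exon, ezrin was the main ERM message of astrocyte-cohort IP, at 103 ± 3.63 FPKM (SD, n = 4), with radixin at 47.6 ± 1.75 and moesin at 11.3 ± 2.61 FPKM. In neuron IP radixin led, at 18.9 ± 1.02 FPKM, over ezrin at 13.0 ± 1.50 and moesin at 1.70 ± 0.40 FPKM. As a share of the summed ERM level, Ezr made up 60.8% to 65.9% of astrocyte-cohort IP and 37.8% to 40.9% of its input. The share of Rdx was 47.4% to 49.9% in input and 28.5% to 30.1% in IP, and that of Msn 9.33% to 14.8% and 5.33% to 9.21%, although the level of both was higher in IP.

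The 4 IP and 4 input libraries did not overlap in any of these shares, and the difference for Ezr was 24.1 percentage points (exact permutation test, two-sided, p = 0.0286, which is the least that 4 against 4 libraries can give; adjusted p = 0.0527 over the 24 share comparisons made). In SAPAP3-cohort IP the Ezr share was 49.1% to 55.8% in WT and 52.2% to 56.0% in KO, below every astrocyte-cohort IP library, a difference that was not tested. In neuron IP the Ezr share was 36.2% to 41.6%, within reach of the 35.7% to 39.9% of its input (exact permutation p = 0.486), while the Rdx share averaged 56.3% against 51.2% in input, without overlap (exact permutation p = 0.0286, adjusted p = 0.0527). The Msn share was 3.72% to 5.97% there against 8.97% to 12.8% in input, also without overlap (exact permutation p = 0.0286, adjusted p = 0.0527). These tests did not pair IP with input. Summed ERM level was 160.0 to 165 FPKM in astrocyte-cohort IP, 43.8 to 47.8 FPKM in its input and 30.5 to 36.5 FPKM in neuron IP.

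**Figure D3:**
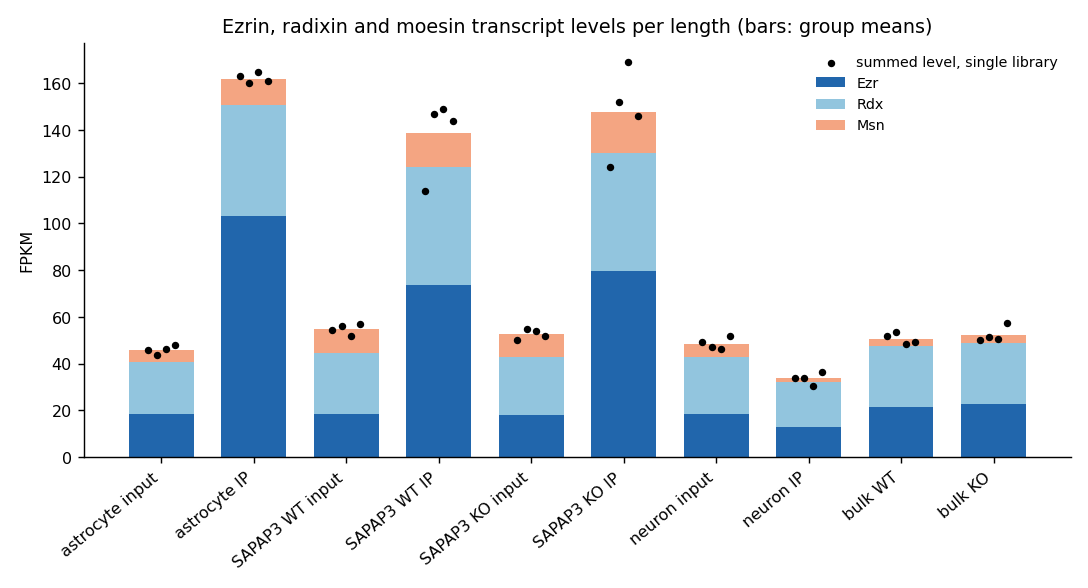
Stacked group means of Ezr, Rdx and Msn in FPKM (vertical axis) for the 10 groups (horizontal axis); black points give the summed level of each library. The sum reaches 160.0 to 165 FPKM in astrocyte-cohort IP, mostly ezrin, and stays at 57.3 FPKM or less in every input, bulk and neuron IP library.

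Ezr, Slc9a3r1, Cd44 and Rdx were also higher in IP than in input in the SAPAP3 cohort. Of the 6 genes, 4 were called higher in WT IP (background 10.9% of 15587 genes) and 5 in KO IP (background 12.3% of 15583). Ezr was at 172, 240.0, 256 and 235 CPM in WT IP and at 199, 255, 290.0 and 235 CPM in KO IP, against 50.9 to 61.2 and 49.0 to 61.7 CPM in input. Its log2 fold change was 2.19 ± 0.13 in WT (edgeR adjusted p = 8.39e-07) and 2.35 ± 0.12 in KO (adjusted p = 5.00e-08). Slc9a3r1 reached 120.0 to 141 CPM in WT IP and 130.0 to 146 CPM in KO IP, with inputs of 29.5 to 35.4 CPM across both genotypes, and log2 fold changes of 2.12 ± 0.08 and 2.23 ± 0.06. Cd44 rose by 2.08 ± 0.27 and 2.44 ± 0.13 (log2), and Rdx by 1.12 ± 0.07 and 1.22 ± 0.09. Nf2 was at 0.18 and 0.21, under the limit. Ependymal markers were higher in IP as well, 6 of 6 in each genotype, and 4 of 10 oligodendrocyte markers in WT and 5 of 10 in KO; their part in these values was not tested.

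Msn was the gene that parted the genotypes at the threshold, but not in a test between them. In WT it had 45.4, 71.7, 44.1 and 63.0 CPM in IP against 44.2, 44.8, 25.8 and 42.9 CPM in input, with overlapping groups and a log2 fold change of 0.68 ± 0.20 (edgeR adjusted p = 0.0138, under the fold limit). In KO it had 66.8, 81.6, 62.2 and 61.7 CPM in IP against 38.1, 49.6, 30.8 and 31.8 CPM in input, a log2 fold change of 1.06 ± 0.15 (adjusted p = 8.19e-05). Leaving out KO IP library 2, KO input library 3 or KO input library 4 took this to 0.96, 0.98 and 0.99, under the limit. Within WT mouse 1 the log2 ratio of IP over input on library totals was 0.04 for Msn, against 0.55 to 0.78 in the other WT mice. That mouse also had the lowest WT ratio for Ezr (1.76), Rdx (0.82), Slc9a3r1 (1.76) and Cd44 (1.51). Its astrocyte markers summed to 23600 CPM in IP, against 28600 to 32200 CPM in the other WT mice. The microglial markers, which include no ERM gene, were not equally depleted in these libraries. They summed to 30.5 to 65.2 CPM in WT IP and to 37.7 to 129 CPM in KO IP, and to 718 to 1610 CPM in WT input, the highest of which was mouse 1; their part in the Msn values was not tested.

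Enrichment in SAPAP3 WT mice was compared with that in the astrocyte cohort. It was smaller for 2 of the 6 genes, where 11.3% of 16032 genes were called smaller. Ezr differed by -0.52 ± 0.13 (log2; edgeR adjusted p = 0.0133) and Slc9a3r1 by -0.37 ± 0.10 (adjusted p = 0.0149). With IP and input paired by mouse as a replicate block, 5 of the 6 were called smaller. This added Cd44 (-0.82, edgeR adjusted p = 0.00218), Msn (-0.58, adjusted p = 0.00599) and Rdx (-0.17, adjusted p = 0.0418). The calls over all genes, in either direction, grew from 3280 to 4980 with the block. The share of all genes called smaller with the block is not reported here, so the 5 of 6 has no background beside it. Without the block, 8 of the 10 astrocyte markers were also less enriched in the SAPAP3 WT mice (median -0.56). Of 10 oligodendrocyte markers, 9 were more enriched (median 0.88), where 9.18% of all genes were called more enriched. Age at injection, substrain and cohort differed together here and cannot be told apart.

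Between genotypes no difference was detected in any of the 6 genes. In RiboTag IP 0 of 6 were called between KO and WT, where 0.0263% of 15198 genes, 4 in number, were called at an adjusted p below 0.05 with no fold limit. The 95% confidence interval of the KO-over-WT ratio ran from 0.880 to 1.37 for Ezr, 0.861 to 1.18 for Rdx, 0.957 to 1.58 for Msn, 0.894 to 1.12 for Nf2, 0.982 to 1.24 for Slc9a3r1 and 0.823 to 1.54 for Cd44. Changes within those bounds are not excluded by 4 mice a group. Msn in KO IP (61.7 to 81.6 CPM) overlapped WT IP (44.1 to 71.7 CPM), with a log2 difference of 0.30 ± 0.16 (edgeR adjusted p = 0.999). Ezr averaged 245 ± 38.0 CPM in KO IP and 226 ± 36.9 CPM in WT IP (SD, n = 4), a difference smaller than the spread.

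In RiboTag input 0 of 6 were called, against 0.00641% of 15591 genes, which was 1 gene, Dlgap3. Interval bounds were narrowest for Nf2 (0.953 to 1.08) and widest for Cd44 (0.662 to 1.24), with Ezr between 0.887 and 1.15. In bulk striatum 0 of 6 were called, and 0% of 16020 genes (792 at an unadjusted p under 0.05; DESeq2 called 17 genes, none of them among the 6). Slc9a3r1 came nearest to a difference in bulk tissue. It stood at 26.8, 24.6, 27.6 and 35.6 CPM in KO and at 31.7, 35.1, 40.3 and 30.9 CPM in WT, overlapping groups with a log2 difference of -0.29 ± 0.12 (edgeR adjusted p = 0.984), and its sign was the other way in IP (0.14 ± 0.07). Bulk Cd44 was at 3.76, 3.50, 3.40 and 3.71 CPM in KO against 5.64, 3.52, 3.35 and 4.70 CPM in WT (-0.29 ± 0.17, edgeR adjusted p = 0.984). The difference between the genotype effects in IP and in input was called for 0 of 6 genes and for 0% of 16059, of which 203 had an unadjusted p under 0.05 by edgeR and 1 was called by DESeq2.

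**Figure D4:**
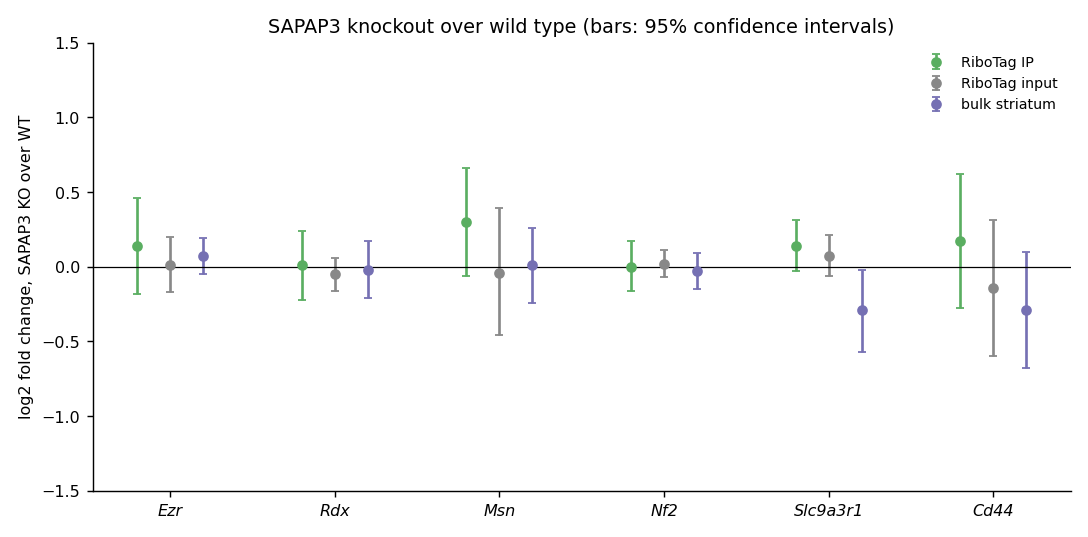
Log2 fold change of SAPAP3 KO over WT (vertical axis) for each gene (horizontal axis) in RiboTag IP, RiboTag input and bulk striatum; points are edgeR estimates and bars 95% confidence intervals. The estimates lie between -0.29 and 0.30, and every interval but that of Slc9a3r1 in bulk striatum (-0.57 to -0.02) includes 0.

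Levels in whole tissue separated Msn and Cd44 from the other genes in a further way. In bulk striatum, Cd44 was at 3.35 to 5.64 CPM and Msn at 10.9 to 15.7 CPM over both genotypes. RiboTag input, also whole-tissue RNA, held 5.74 to 18.2 CPM of Cd44 and 15.7 to 49.6 CPM of Msn, above the bulk libraries throughout apart from 1 Msn library level with the highest of bulk. The SAPAP3-cohort inputs had the highest group means, with libraries at 8.66 to 18.2 CPM for Cd44 and 25.8 to 49.6 CPM for Msn, overlapping the inputs of both other cohorts for Cd44 and those of the astrocyte cohort for Msn. Ezr went the other way, with 49.0 to 61.7 CPM in input and 63.3 to 72.9 CPM in bulk, and Rdx and Slc9a3r1 overlapped (105 to 132 against 111 to 148 CPM, and 29.5 to 42.8 against 24.6 to 40.3 CPM). Bulk and input libraries differed in preparation and in mice, and no test was made between them. Every input came from virus-injected striatum, while the bulk labels name no virus. Microglial markers were higher in input as well (691 to 1610 CPM against 409 to 504 CPM). So were the intermediate filament genes Gfap (194 to 491 CPM against 60.0 to 142 CPM) and Vim (25.7 to 71.2 CPM against 13.9 to 19.2 CPM). The part of any of these in the Msn and Cd44 levels was not tested. In whole tissue, fewer cells of a type and less RNA per cell cannot be told apart.

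**Figure D5:**
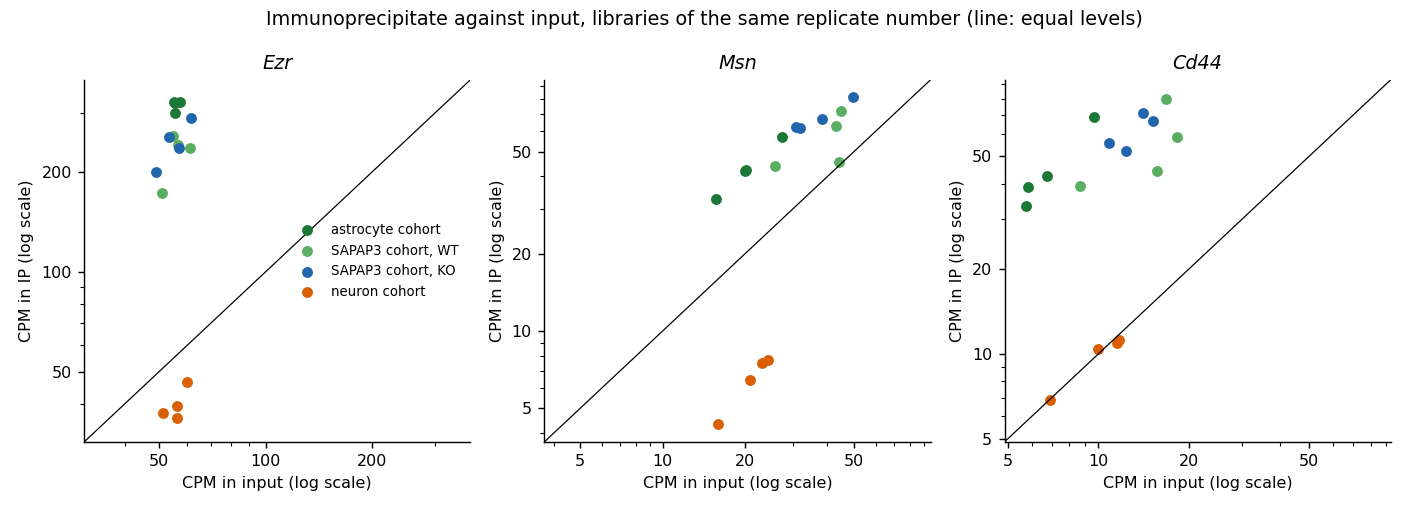
Level in IP (vertical axis) against level in input (horizontal axis), both in CPM on log scales, for Ezr, Msn and Cd44, with 1 point per replicate number in each of the 4 RiboTag sets and a line of equal levels. Ezr differs little between inputs, whereas Msn and Cd44 spread along both axes, and Cd44 of the neuron cohort lies on the line.

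Ratios within a mouse varied less in the astrocyte cohort than in SAPAP3 WT mice. In the astrocyte cohort the log2 ratio of IP over input on library totals was 1.06 to 1.07 for Msn in the 4 mice, although Msn in IP ranged from 32.6 to 56.9 CPM. For Ezr that ratio was 2.44 to 2.55, for Rdx 1.08 to 1.10, for Slc9a3r1 2.15 to 2.43 and for Cd44 2.54 to 2.83. In SAPAP3 WT mice it spread from 0.04 to 0.78 for Msn, from 1.51 to 2.25 for Cd44 and from 1.76 to 2.22 for Ezr. SAPAP3 KO mice ran from 0.72 to 1.01 for Msn, 2.08 to 2.37 for Cd44 and 2.03 to 2.25 for Ezr. Their Slc9a3r1 ratio, at 2.01 to 2.05, varied less than that of the astrocyte cohort. Differences in spread were not tested. The library with the least Msn also had the least Cd44 in 8 of 8 RiboTag groups, and the library with the most Msn had the most Cd44 in 4 of 8. Both genes are read from the same libraries, and IP and input share mice, so the 8 groups are not independent.

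Genes whose mean level ran most like each of the 6 over the 10 groups were ranked by Pearson correlation of mean log2 levels among the 11762 genes averaging 5 CPM or more, as a description of 10 points that share libraries. Ezr ran with Aass (r = 0.999), a lysine-degrading enzyme, Aldoc (r = 0.997), the glycolytic aldolase C of astrocytes, and Acot11 (r = 0.996). Slc9a3r1 ran with Cbs, Plxnb1 and Sox2 (r = 0.998, 0.998 and 0.997), a cystathionine synthase, a semaphorin receptor and a transcription factor of neural stem cells and astrocytes. Rdx ran with Elovl5, Sgcb and Pcyt1a (r = 0.997, 0.996 and 0.996). Cd44 ran with the intermediate filament genes Vim (r = 0.992) and Gfap (r = 0.991) and with the cotransporter gene Slc12a7 (r = 0.990), and Msn with Scpep1, Ripk1 and Bmp2k (each r = 0.981). Nf2 had no gene above r = 0.947 (Zfp446), and its correlation with the other 5 ran from -0.163 to 0.276. Ezr and Rdx correlated at r = 0.978 and Ezr and Msn at r = 0.722.

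Among membrane proteins that bind ERM proteins, 8 were tested in the astrocyte cohort, of which 2 were called higher and 4 lower. Of all genes 13.4% were called higher and 13.5% lower, and the list median was -0.84 against -0.02 over all genes. Pdpn, which encodes podoplanin, rose from 9.09, 7.19, 8.03 and 10.4 CPM in input to 42.0, 37.4, 43.9 and 50.9 CPM in IP, a log2 fold change of 2.56 ± 0.11 (edgeR adjusted p = 2.40e-09). Icam1, an adhesion receptor for leukocyte integrins, rose by 1.67 ± 0.21 (adjusted p = 1.60e-05). The P-selectin ligand gene Selplg, a microglial marker gene in brain, fell from 40.9 to 48.1 CPM to 0.521 to 0.785 CPM, and Icam2 and Spn, of endothelial and blood cells, had 2 to 3 and 1 to 7 reads left per IP library against 29 to 46 and 30 to 87 in input. Podxl, of endothelial and podocyte surfaces, fell by 1.54 (log2), while L1cam was at 0.34. In neuron IP 0 of the 8 were called higher and the same 4 lower, where 0.42% and 15.8% of all genes were called. Selplg was lower by 4.99 ± 0.12, Icam2 by 4.72 ± 0.28, Spn by 4.16 ± 0.49 and Podxl by 1.18 (log2). Pdpn was at -0.19 and Icam1 at -0.15.

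Enzymes that phosphorylate, dephosphorylate or recruit ERM proteins mostly stayed under the fold limit in the astrocyte cohort, with 0 of 12 called higher and 1 lower (median -0.11), where 13.4% of all genes were called higher and 13.5% lower. The kinase gene listed as 2610018G03Rik, an older symbol of Stk26, fell by 1.27 ± 0.07 (log2; edgeR adjusted p = 8.38e-09). The kinases Slk and Stk10, which phosphorylate the regulatory threonine, were at -0.14 and -0.18 and the kinase Rock1 at 0.82, all under the limit. In neuron IP 2 of 12 were lower, a share near the 15.8% of all genes called lower. They were Stk10, lower by 1.43 ± 0.08 (log2; edgeR adjusted p = 2.73e-07) and Rock1, lower by 1.22 ± 0.05 (adjusted p = 5.40e-08). Rock1 fell there from 51.1, 49.0, 54.4 and 57.5 CPM to 19.9, 20.2, 19.1 and 19.5 CPM, whereas its paralogue Rock2 was at 0.48.

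Nf2 was not called, yet 5 of the 15 genes of the Hippo pathway around it were higher in astrocyte-cohort IP and 0 lower, where 13.4% of all genes were called higher, with a median of 0.75 against -0.02 over all genes. Tead1, the DNA-binding partner of YAP and TAZ, was at 45.0, 42.5, 46.8 and 48.8 CPM in IP and at 5.43, 7.26, 5.97 and 6.96 CPM in input, a log2 fold change of 3.06 ± 0.08 (edgeR adjusted p = 4.09e-11). Amot, which encodes the YAP-binding protein angiomotin, rose by 2.47 ± 0.07 (adjusted p = 4.81e-11) and Wwtr1, which encodes TAZ, by 2.24 ± 0.08 (adjusted p = 3.22e-10). Yap1 rose by 1.68 and the kinase gene Lats2 by 1.37 (log2), while the upstream kinases Stk3 and Stk4 were at 0.12 and 0.13. In neuron IP 0 of 15 were called in either direction, with a median of -0.59, where 16.3% of all genes were called. The interaction term gave a larger astrocyte-cohort enrichment for 14 of the 15, in the test that called 34.3% of all genes that way.

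Of 7 Band 4.1 genes, whose proteins share the FERM domain, 3 were called higher in astrocyte-cohort IP and 0 lower (median -0.06), where 13.4% of all genes were called higher. They were Epb4.1l5, higher by 1.89 ± 0.06, Epb4.1l2 by 1.20 ± 0.04 and Epb4.1l4a by 1.03 ± 0.12 (log2; edgeR adjusted p of 1.45e-10, 5.04e-10 and 6.77e-06). None of the 7 was called in neuron IP, where 16.3% of all genes were called in one direction or the other. Of the NHERF1 relatives, Slc9a3r2 was at 0.18 and Pdzd3 was lower by 1.34 ± 0.19 (log2, edgeR adjusted p = 5.87e-05) in the astrocyte cohort. Pdzd3 had only 20 to 28 reads per IP library in that cohort, against 36 to 47 in input. There 13.5% of all genes were called lower. Of these 2 tested, 0 were called in neuron IP, beside the same 16.3% of all genes.

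Genes for ligands and sheddases of CD44 moved in both directions. In astrocyte-cohort IP 2 of 9 were higher and 4 lower, where 13.4% and 13.5% of all genes were called. Mmp14, a membrane metalloprotease that cleaves CD44, rose by 1.51 ± 0.09 (log2; edgeR adjusted p = 2.33e-08) and Has2, a hyaluronan synthase, by 1.14 ± 0.43 (adjusted p = 0.0307), although Has2 had only 31 to 106 reads per IP library. The proteoglycan Srgn fell by 2.94 ± 0.29, osteopontin (Spp1) by 2.25 ± 0.36, Has3 by 1.63 ± 0.12 and Has1 by 1.03 (log2). In neuron IP 1 of 9 was higher, Has1 by 1.07 ± 0.17 (edgeR adjusted p = 0.00027), and 4 were lower, where 0.42% and 15.8% of all genes were called: Srgn by 4.29 ± 0.27, Has2 by 2.07 ± 0.32, Mmp14 by 1.47 ± 0.18 and Vcan by 1.37 (log2). Between genotypes 0 genes of any of these lists were called in IP, input or bulk.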

How the data were processed

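RNA-seq read counts per gene were deposited by the authors as 1 table of 40 libraries, with whole-number counts that are not normalized. Per the submitters' processing notes, reads were aligned to mm10 with STAR and counted with HTSeq; the counting options and strand setting are not given in the sources used here. The labels name a stranded TruSeq library with ribosomal RNA depletion and the methods a Nugen Ovation kit. The study tested with limma-voom on genes above an FPKM minimum; no deposited fold changes were used here, and 0 columns belonged to samples outside the series.

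Groups came from the labels. Library totals were 23.4 to 84.1 (in units of 1000000 reads), and p-values measure the spread between 4 libraries a group. The main fits took IP and input as separate groups and did not pair them by mouse. Only the replicate block did so. Each comparison was fitted over all genes passing filterByExpr in its own libraries with edgeR 4.0.16 (TMM, quasi-likelihood test, R 4.3.3), adjusted by Benjamini-Hochberg and called at adjusted p below 0.05, with |log2FC| above 1 for IP against input and between IP groups. edgeR does not report standard errors for this test, so SE was taken as the size of log2FC over the square root of F, and intervals as 95% from the matching t quantile. The fits were tested on simulated data. Share comparisons used exact permutation tests (SciPy 1.17.1). FPKM used merged RefSeq exons of GRCm38.p6, the source of all coordinates and sequences; minimap2 2.31-r1302 searched for copies. log2 levels took a pseudocount of 0.5.

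The 6 genes and the lists were chosen with earlier results of these data known. Named genes were the 6 in every comparison; from each other list, in astrocyte- and neuron-cohort IP against input, up to 3 called genes with the largest change in each direction; any list gene called between genotypes; and the 3 genes of most similar group means for each of the 6. Further list genes are named with values chosen after seeing them. The animal label pairs IP with input in the astrocyte and SAPAP3 cohorts; same-mouse deviations from group means correlated at 0.28 to 0.70 over 11024 to 11146 genes, and in the neuron cohort, where labels give only a number, at 0.50 to 0.80. Alternatives were limma-voom 3.58.1, DESeq2 1.42.0, RLE factors, a stricter filter and none, all 40 libraries in 1 fit, each library left out, the replicate block and Xist as a covariate. Dlgap3 served as the genotype check. Values of some list genes are not reported here.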

Additional observations from a re-analysis of the deposited data

Results flagged for a closer look

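The gap between astrocyte- and neuron-cohort enrichment was tested by an interaction term and passed for all 6 genes, at log2 differences of 3.36 (Slc9a3r1), 3.01 (Ezr), 2.78 (Msn), 2.77 (Cd44), 1.50 (Rdx) and 0.19 (Nf2), in a test that called 70.1% of all genes in one direction or the other.

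Enrichment in SAPAP3 WT mice differed from the astrocyte cohort by -0.52 for Ezr and -0.37 for Slc9a3r1 (log2; edgeR adjusted p = 0.0133 and 0.0149).

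In 3 of 60 gene and group combinations 1 library stood apart from the other 3 by Dixon's criterion, which chance gives in about 1 of 20 groups. They were Ezr in astrocyte-cohort IP library 4 (300.0 CPM against 321 to 324), Ezr in astrocyte-cohort input library 1 (57.3 CPM against 55.0 to 55.4) and Msn in SAPAP3 WT input library 3 (25.8 CPM against 42.9 to 44.8). The last was also the WT input with the least Cd44, Gfap and Vim.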

How the results depend on the processing

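In the astrocyte and neuron cohorts and in the difference between their enrichments, every call on the 6 genes kept its direction and its side of the threshold under limma-voom, DESeq2, RLE factors, no filter, a filter of 5 CPM in 4 libraries, all 40 libraries in 1 fit, the replicate block and each library left out. With that filter the genes called fell from 4157 to 2375 (astrocyte cohort), 2635 to 988 (neuron), 3590 to 1887 (SAPAP3 WT), 3713 to 2018 (SAPAP3 KO) and 4299 to 2642 (neuron against astrocyte IP), as fewer genes were tested. Msn in SAPAP3 KO mice was at 0.96 without IP library 2 and at 0.98 and 0.99 without input libraries 3 and 4, under the limit. For enrichment in SAPAP3 WT against the astrocyte cohort, the replicate block called 5 of the 6 genes, and 4980 genes in either direction. Without WT IP library 3, Rdx passed at -0.25 (edgeR adjusted p = 0.0208). The block changed no other call on the 6 genes.

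Between genotypes, none of the 6 was called under any alternative. Over all genes, DESeq2 called 8 in input, 8 in IP, 17 in bulk and 1 for the difference between IP and input, and the fit of all 40 libraries 8 in input, 18 in bulk and 1 for that difference; Xist as a covariate left 1 in IP. Leaving out 1 library gave 0 to 1 in input (0 without KO input library 2, 3 or 4), 0 to 3 in IP (0 without WT IP library 4, 3 without KO IP library 1 and 2 without any other) and 0 to 1 in bulk (1 without WT library 4). The sign of some estimates near 0 turned. Nf2 in IP was 0 with DESeq2 and RLE factors and -0.02 with Xist, Msn in bulk -0.12 with Xist, and Rdx in bulk 0.06 without the 2 libraries that share an animal label, a choice made after seeing the data. With 1 library left out, log2 differences ran from -0.04 to 0.06 (Ezr) and -0.20 to 0.05 (Msn) in input, -0.07 to 0.09 (Rdx) and -0.05 to 0.04 (Nf2) in IP, -0.09 to 0.04 (Rdx), -0.07 to 0.09 (Msn) and -0.05 to 0.01 (Nf2) in bulk, and -0.02 to 0.14 (Rdx) and -0.07 to 0.03 (Nf2) between IP and input. Bulk Cd44 did not pass the 5 CPM filter and has no value there. The cause of these shifts was not tested. Scaling by TMM over all libraries moved 24 of 60 group levels by more than their SD. With 4 libraries a group, the genotype intervals set the limit on what could be seen.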
